A study of Bos taurus with 16 samples.

Results

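Aquaporins were followed in the endometrium, the inner lining of the uterus, of 4 cows over the first 100 days after parturition. The set holds AQP1, AQP3, AQP4, AQP5, AQP7, AQP8, AQP9 and AQP11, taken as every non-control probe that the array design gives one of these 8 names. They have 19 probes among the 43653 of the array, 6 of them for AQP4, 1 for AQP11 and 2 for each of the other genes.

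Aquaporins are membrane channels through which water follows osmotic gradients. The classical members, among them AQP1, AQP4, AQP5 and AQP8, mainly carry water, whereas the aquaglyceroporins AQP3, AQP7 and AQP9 also carry glycerol and other small solutes. AQP11 belongs to a distant branch that resides largely inside the cell. In the uterus, aquaporins of epithelium and blood vessels are known for moving water into the tissue and lumen as steroid hormones change, and after calving the uterus loses fluid and mass while its lining is rebuilt.

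The animals were female Bos taurus labelled as fertile, with no treatment named in the labels, and each was biopsied with forceps from the uterine horns at nominal days 10, 30, 50 and 100. Sampling took place on day 9 or 10, day 29 or 30, day 49 or 51, and day 99 or 100, so each time has 4 one-colour arrays, 1 per cow, and 16 arrays in all. Breed and age are not given in the sources used here. A level below is the log2 processed signal relative to the percentile 75 of its own array; a difference of 1 is therefore a doubling, and the levels of different probes are not read as relative abundance.

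Each array had 60.9% to 76.9% of its probes well above background and none saturated. The arrays of cows 2 and 3 at day 100 were the dimmest, with median processed signals of 54.8 and 51.1 against 79.2 to 154 on the others. The part of this dimness in the day 100 values was not tested. Measured were 18 of 20 epithelial, 9 of 10 stromal fibroblast, 15 of 15 endothelial and 12 of 12 smooth muscle markers. Such counts do not establish the tissue, and the biopsies differed in composition. Over the 16 arrays the epithelial list was lowest, at -3.24 from its mean, in cow 2 at day 100, and highest, at 2.73, in cow 1 at day 100. Their smooth muscle lists stood at 2.02 and -3.38, again the extremes of the 16 arrays. Every cow had its own slide, on which the 4 times took the same places in each cow, so place and time cannot be told apart. Because whole biopsies were measured, fewer cells of a type and less RNA per cell cannot be told apart either.

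Of the 19 probes, 15 in 7 genes were well above background on at least 4 arrays and were tested. The 4 left out were both AQP7 probes, AQP3 A_73_P263201 and AQP8 A_73_P058456. The probe sequences below are those on which the description turns. The first is from AQP4 (A_73_P253611, chr24:30855248-30855307, plus strand) and has 2 open forward frames, the next is the last 30 bases of the AQP4 probe that behaved differently (A_73_P201322, chr24:30857450-30857509, plus strand), which has no open forward frame over its length. The third is from AQP1 (A_73_P108296, chr4:68049698-68049757, minus strand), with a closing stop triplet in capitals. The fourth is from AQP5 (A_73_P090281, chr5:32919289-32920340, minus strand), whose 60 bases span 1052 bases of the genome, so that its 2 ends are separated there. Coordinates are those of the array design on Btau_3.1, and placement in exons or untranslated regions was otherwise not analysed here.
AQP4 A_73_P253611: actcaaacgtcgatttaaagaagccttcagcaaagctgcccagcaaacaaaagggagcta
AQP4 A_73_P201322, bases 31 to 60: agggtcttccctggtggctcagatgataaa
AQP1 A_73_P108296: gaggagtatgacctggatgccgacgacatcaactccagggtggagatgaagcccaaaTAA
AQP5 A_73_P090281: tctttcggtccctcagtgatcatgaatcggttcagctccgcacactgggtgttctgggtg

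Where a gene has several probes, the one with the highest mean signal level stands for it here, a rule of choice that says nothing of which probe reports the gene best. By that rule 0 of the 7 tested aquaporin genes were called in any of the 6 comparisons between times. AQP4, a water-selective channel best known from the end-feet of astrocytes and also found in the basolateral membrane of several epithelia, is the gene for which the choice of probe decides the result. Its representing probe, A_73_P201322, was nearly flat, whereas its other 5 probes were higher in all 4 cows at days 50 and 100 than at day 10. Part of A_73_P201322 may lie in an interspersed repeat, and whether its signal is that of AQP4 was not tested. Of these 5, A_73_P253611 passed the test at both times, with 41.3-fold and 37.0-fold higher levels, and A_73_P104071 passed it at day 100. On A_73_P253611, 3 of 4 arrays at day 10 were not well above background, so the size of its fold rests on dim spots.

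On A_73_P253611 the levels of cows 1 to 4 were -7.10, -8.11, -7.21 and -6.19 at day 10, and only cow 4 was well above background. They were -3.77, -6.25, -3.67 and -5.60 at day 30, all well above background. At day 50 they were -0.79, -0.98, -3.13 and -2.24. All 4 cows thus lay higher at day 30 than at day 10, and the day 50 values overlapped neither group. At day 100 cows 1, 3 and 4 reached 1.47, -1.77 and -0.86, their highest levels, whereas cow 2 was back at -6.62 and not well above background.

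The probe rose from day 10 by 5.37 ± 1.12 at day 50 on the log2 scale (SE, 4 cows; limma adjusted p = 0.041). By day 100 it had risen by 5.21 ± 1.12 (limma adjusted p = 0.0284), and both times it was higher in 4 of 4 cows. At day 30 the difference was 2.33 (95% interval -0.12 to 4.78, adjusted p = 0.377). In order of mean level the times ran day 10, day 30, day 100 and day 50. The step from day 30 to day 50 was 3.04 (0.59 to 5.48), with an unadjusted p of 0.0193 in the limma fit and an adjusted p of 0.501. Days 100 and 50 differed by -0.16 (-2.60 to 2.29), an interval wide enough for a further rise or a fall.

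A second AQP4 probe, A_73_P104071, had levels of -5.38, -7.02, -5.31 and -4.63 in cows 1 to 4 at day 10. Its levels were -2.38, -5.31, -2.49 and -6.22 at day 30, and 0.03, -0.22, -2.08 and -1.02 at day 50. At day 100 they were 2.36, -5.32, -0.41 and 0.05. At days 50 and 100 the pattern over animals was that of the first probe. Every cow was higher at day 50 than on days 10 and 30, and cow 2 alone was low at day 100. At day 30 the probes differed, since cow 4 was lower here than at day 10. The day 30 difference was 1.49 (-1.0 to 3.98, limma adjusted p = 0.577). This probe rose by 4.76 ± 1.13 at day 100 (SE, limma adjusted p = 0.0401), and its difference of 4.76 at day 50 had an adjusted p of 0.0618. At day 10, 2 of its 4 arrays were well above background.

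The other 3 AQP4 probes of this kind lie farther along the transcript and pointed the same way without passing the test. A_73_P345971, A_73_P270106 and A_73_117667 had differences from day 10 of 2.05, 4.69 and 4.77 at day 50 (adjusted p from 0.0977 to 0.198). At day 100 these were 2.89, 4.77 and 5.02 (adjusted p from 0.0584 to 0.066). At day 30 they were 0.46, 1.26 and 1.83 (limma adjusted p from 0.61 to 0.822), with 3, 3 and 2 cows higher and 1 lower on each probe. A_73_117667, well above background on 15 of 16 arrays, had no value for cow 1 at day 30, where its spot was nonuniform. It stood at -3.77, -5.88, -4.80 and -3.74 in cows 1 to 4 at day 10 and at 1.08, 1.09, -1.0 and -0.28 at day 50. At day 100 it reached 3.38, 2.10 and 1.12 in cows 1, 3 and 4, and -4.69 in cow 2. Pairs among these 5 probes correlated with r of 0.88 to 0.99 over 15 or 16 arrays, which share their RNA samples and scaling.

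The representing probe, A_73_P201322, did not follow them. Its levels in cows 1 to 4 were -0.31, -0.24, -0.01 and -0.24 at day 10 and 0.30, -0.24, -0.22 and -0.10 at day 30. They were 0.27, 0.15, -0.42 and -0.13 at day 50 and 1.36, 0.06, 0.07 and 0.06 at day 100. Where the other probes spread over 5.21 to 9.30 log2 units among the cows at day 100, this one spread over 1.30, nearly all of it from cow 1. Its differences from day 10 were 0.17 (-0.39 to 0.72) at day 50 and 0.59 (0.03 to 1.14, adjusted p = 0.175) at day 100, where it was higher in 4 of 4 cows and the groups did not overlap. It correlated with the others at r of 0.60 to 0.66. The design places it on the same transcript, from base 3050, between A_73_P104071 at base 1169 and A_73_P345971 at base 3959. No other probe of the array shares a 16-base stretch with it, and matches elsewhere in the genome, including to interspersed repeats that the printed bases may belong to, were not tested.

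**Figure D1:**
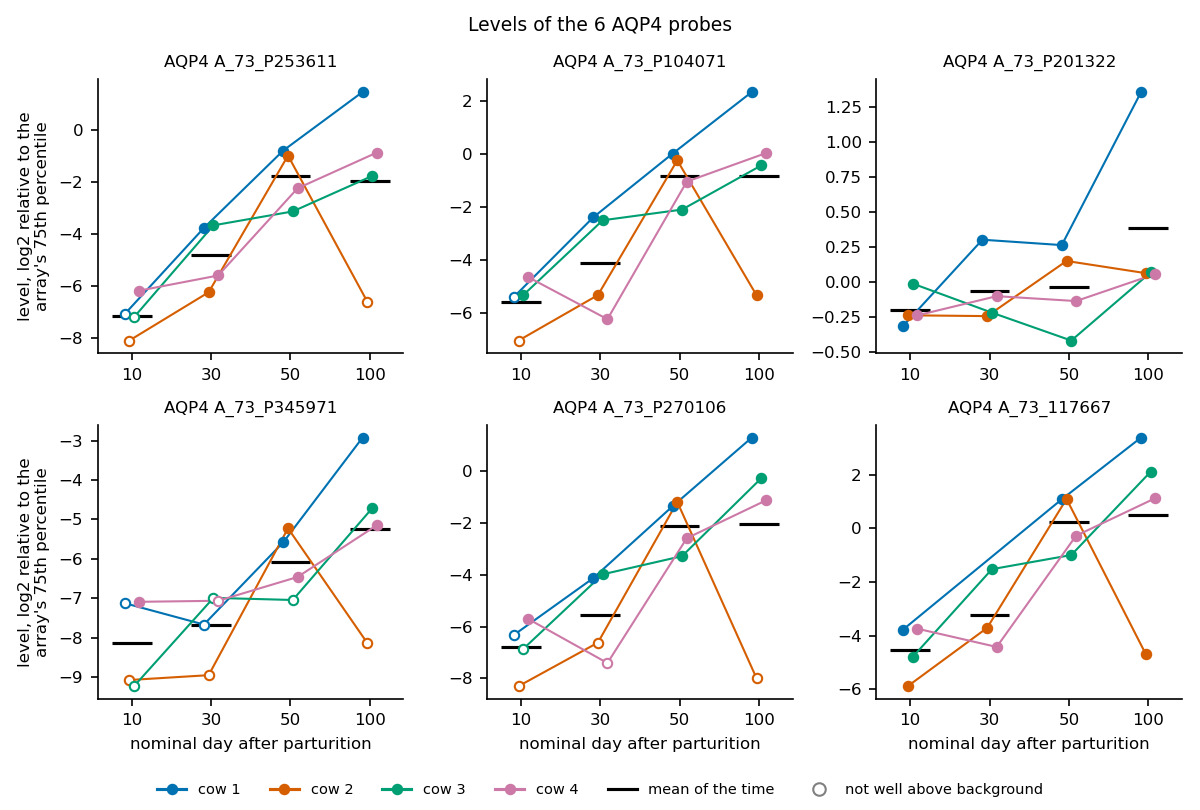
Level of each AQP4 probe (log2 relative to the percentile 75 of the array) by nominal day after parturition, with a line per cow, black bars at the mean of a time and open points where the spot was not well above background; each panel has its own scale. On 5 probes every cow is higher at day 50 than at day 10 and cow 2 is low at day 100, whereas A_73_P201322 stays between -0.42 and 1.36 on all 16 arrays.

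Over the 15 tested probes, 1 was called at day 50 and 2 at day 100 against day 10, all higher and all of AQP4. Among all 33174 tested probes, 1.65% were called at day 50 (0.597% higher) and 4.6% at day 100 (1.47% higher). Leaving out a cow or an array moved these counts over all probes, 548 and 1527, to between 21 (without cow 3) and 973 (without cow 2 at day 100) at day 50, and to between 73 (without cow 1) and 3102 (without cow 2 at day 100) at day 100. At day 30 none of the 15 was called, against 0.419% of all probes, and at an unadjusted p under 0.05 none of the 15 either, beside 14% of all probes. For day 50 against 30, day 100 against 30 and day 100 against 50, limma called 0 of the 15 and 0% of all probes; at an unadjusted p under 0.05 these held 3, 4 and 0 of the 15, beside 9.33%, 12.8% and 3.14% of all probes. Against day 10, an unadjusted p under 0.05 was reached by 5 of the 15 at day 50 and 7 at day 100, beside 18.6% and 25.7%. The F test over the 4 times called 0 of the 15 at an adjusted p, with 1.03% of all probes called, and the lowest adjusted p was 0.0693, on A_73_P253611. The day 50 and day 10 groups did not overlap for 5 of the 15 probes, all AQP4 and all higher, a pattern that 8.68% of all probes showed. For day 50 against 30 this held for 4 of the 15 (4.1% of all probes), and for day 100 against 10 for 1, the flat AQP4 probe (4.57%). The median difference of the 15 was -0.50 at day 50 and -0.09 at day 100, beside -0.03 and -0.07 over all probes. The comparisons with day 10 share its arrays.

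These calls were sensitive to the model and to single animals and arrays. With no replicate block, that is without cow in the fit, the adjusted p of A_73_P253611 at day 50 became 0.0554 and that of A_73_P104071 at day 100 became 0.0563, so both calls were lost. Fitted on days 10 and 100 alone, A_73_P253611 had an adjusted p of 0.149. The day 50 call of A_73_P253611 remained in 4 of 20 fits that leave out a cow or an array, namely without cow 4 at day 30 or without cow 1, 2 or 4 at day 100, and its adjusted p rose to at most 0.199 in the other 16, among them each fit without a whole cow. The day 100 call remained in 11 of 20 and was lost without cow 1, 3 or 4 as a whole or without the day 10 or day 100 array of one of these cows (adjusted p up to 0.163). Without cow 2 at day 100, 5 AQP4 probes were called at day 100 and 4 at day 50, beside 3102 and 973 of all probes. Without both cow 1 and cow 2 at day 100, 4 were called at each time, beside 1799 and 1448 of all probes. With all arrays, 1527 of all probes were called at day 100 and 548 at day 50. With another background correction (normexp) the differences of A_73_P253611 shrank to 2.60 at day 50 and 3.44 at day 100, both still called.

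AQP4 moved with the epithelial marker list. Over the arrays its 5 like-behaving probes had r of 0.71 to 0.81 with that list (Spearman's rho 0.69 to 0.77), and 0.66 to 0.75 without the 2 arrays farthest from the list's median. After time and cow were taken out, r was 0.65 to 0.80. Day 10 biopsies had list levels between -2.51 and 0.64, those of day 30 between -2.08 and 0.35, those of day 50 between 0.66 and 1.24, and those of day 100 between -3.24 and 2.73. Cow 2 at day 100, the low AQP4 value, had the lowest epithelial level of all arrays. Cows 1 and 4 at day 10 had list levels of 0.64 and 0.64 and A_73_P104071 levels of -5.38 and -4.63, while cows 3 and 4 at day 100 had list levels of 0.60 and 0.62 and probe levels of -0.41 and 0.05. These 4 biopsies were picked after their values were seen, and they differed in other lists, with neutrophil levels of 4.35 and 3.86 against 0.04 and -1.77. With epithelium minus smooth muscle as a covariate, A_73_P253611 was higher by 4.67 at day 50 and 4.62 at day 100 (limma adjusted p = 0.0338 for the first and 0.0249 for the second). In that fit 4 AQP4 probes were called at day 100, beside 2653 of all probes, against 1527 without the covariate. The covariate came from the same arrays, and the epithelial list at day 50 lay above all its levels at days 10 and 30. With the smooth muscle, stromal fibroblast and adipocyte lists r was -0.68 to -0.50, -0.68 to -0.59 and -0.65 to -0.51. The squamous epithelium list, with 4 of 7 markers measured and levels from -0.85 to 1.24, had r of 0.68 to 0.75 with the same probes, and the erythroid list 0.53 to 0.62. After time and cow these were 0.46 to 0.64 for the squamous and 0.64 to 0.77 for the erythroid list. Without each list's 2 farthest arrays they were 0.48 to 0.58 and 0.14 to 0.20. The part of the epithelium, or of these other lists, in the AQP4 values was not tested.

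The genes most like AQP4 over the arrays, chosen by Pearson's r among 12420 genes, depended on the probe. For A_73_P253611 they were RABGAP1L, a regulator of small GTPases, at 0.97, the transcriptional co-repressor TLE1 at 0.92 and ECHDC2 at 0.92. For A_73_P104071 they were TLE1 at 0.95, RABGAP1L at 0.94 and the junctional receptor CXADR at 0.94. TLE1 appeared for A_73_P270106 as well, at 0.94. For the flat probe A_73_P201322 they were AMMECR1, VWA7 and RPAP1, with r of 0.85 to 0.89.

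AQP1, the water channel typical of capillary endothelium and red blood cells, had 2 probes on chromosome 4 and no call. On A_73_101654 (chr4:68047877-68047936), well above background on all 16 arrays, cows 1 to 4 stood at 3.90, 2.09, 4.24 and 4.47 at day 10. They stood at 3.51, 3.69, 3.55 and 2.93 at day 30 and at 3.59, 3.86, 0.68 and 3.82 at day 50. At day 100 the levels were 0.87, 2.60, 2.29 and 3.56. The groups overlapped throughout, with single low values in cow 2 at day 10, cow 3 at day 50 and cow 1 at day 100. The day 100 difference from day 10 was -1.34 (-3.0 to 0.32, adjusted p = 0.285), lower in 3 of 4 cows. The other probe, A_73_P108296, whose sequence ends in the stop triplet, was lower in 4 of 4 cows, with a difference of -1.91 (-3.67 to -0.16) and an adjusted p of 0.162 beside an unadjusted p of 0.0347 in the limma fit. Only 1 of its 4 arrays at day 100 was well above background, and its day 100 difference turned to 0.04 with normexp. The 2 probes correlated at r = 0.83 over 16 arrays.

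AQP1 followed the endothelial marker list more closely than any other of the 10 lists. With A_73_101654 that list, all 15 of whose 15 genes were measured, had r = 0.73 (rho 0.62), 0.55 without the 2 arrays farthest from the list's median and 0.93 after time and cow. For A_73_P108296 the values were 0.71, 0.65 without those arrays and 0.86 after time and cow. The lowest list levels, -1.31 in cow 1 at day 100 and -1.11 in cow 2 at day 10, belonged to biopsies that were also low in AQP1. Cow 3 at day 50 departed from this, with the lowest level of A_73_101654 on all 16 arrays at an endothelial level of -0.22. Day 10 biopsies had endothelial levels between -1.11 and 0.41, those of day 30 between -0.47 and 0.46, those of day 50 between -0.22 and 0.62, and those of day 100 between -1.31 and 0.61. Its part in the AQP1 values was not tested. The genes most like A_73_101654 were RBM20 at 0.91, CD93 at 0.82 and the receptor tyrosine kinase TIE1 at 0.81, and those most like A_73_P108296 were AXIN2 at 0.93, C5 at 0.90 and ITGA1 at 0.87.

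**Figure D2:**
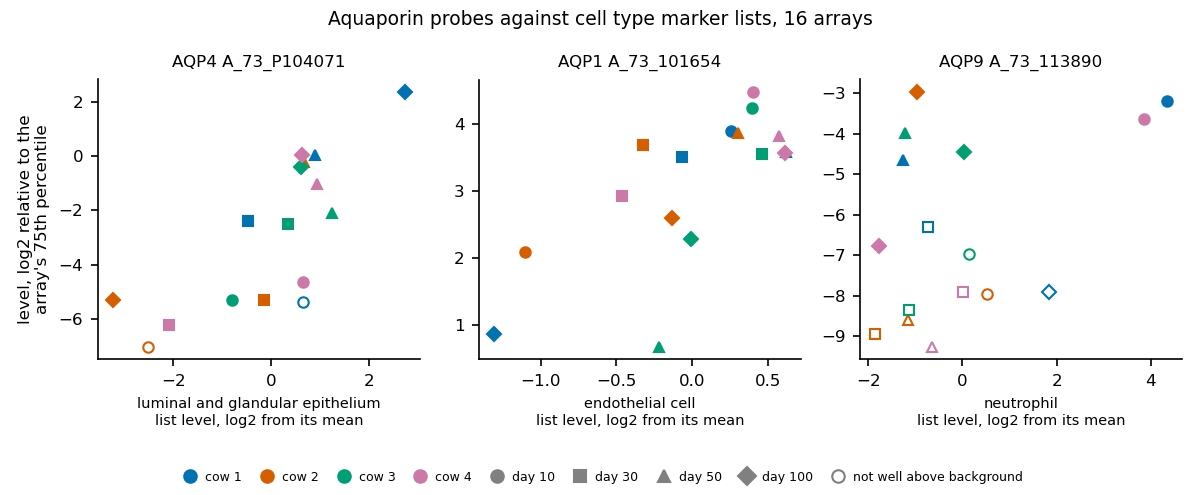
Level of 3 aquaporin probes (log2 relative to the percentile 75 of the array) against the level of a cell type marker list (mean log2 level of its genes, each from its own mean over the 16 arrays); colours are cows, shapes are days and open points were not well above background. AQP4 ranges from -7.02 to 2.36 along an epithelial list from -3.24 to 2.73, AQP1 is low on both arrays with the lowest endothelial level, and AQP9 is high in cows 1 and 4 at day 10, where the neutrophil list is at 4.35 and 3.86, but also on arrays with a low list.

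AQP5, a water channel of the apical membrane in secretory glands, varied widely both among cows and among times. On A_73_115344 (chr5:32918634-32918693) cows 2 and 3 stood at 2.65 and 2.46 at day 10 and cows 1 and 4 at -4.44 and -4.70, the widest split of any member with all 4 arrays well above background at that time. At day 30 the 4 cows had levels of -0.29, 1.31, -2.40 and 0.34. At day 50 they had -3.66, -0.32, -1.37 and -4.04, and at day 100 they had 1.60, -1.42, -2.84 and -3.51. Cow 2 was lower at each later time, whereas cow 1 reached its own highest level at day 100. The groups overlapped in all 6 comparisons, and the differences from day 10 were 0.75 (-2.75 to 4.25), -1.34 (-4.84 to 2.16) and -0.53 (-4.03 to 2.97) at days 30, 50 and 100. Intervals of this width would hide even a change of several-fold. The spanning probe, A_73_P090281, correlated with it at r = 0.94 over 16 arrays and was well above background on 8 of them.

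At day 10 the cows low in AQP5 differed from the others in several marker lists. Cows 1 and 4 had neutrophil list levels of 4.35 and 3.86 and cows 2 and 3 had 0.52 and 0.14, while the T and NK cell list was at 0.99 and 1.55 against -1.13 and -0.49. Their epithelial levels were 0.64 and 0.64 against -2.51 and -0.81, and their smooth muscle levels -1.31 and -1.40 against 1.59 and 1.29. Over all 16 arrays A_73_115344 had r = -0.73 (rho -0.70) with the T and NK cell list, all 9 of whose 9 genes were measured, and -0.80 without its 2 farthest arrays. With the endothelial list r was -0.69 (rho -0.70), and with the neutrophil list it was -0.22. With the stromal fibroblast list r was -0.49, and -0.85 after time and cow. The smooth muscle and adipocyte lists had r of 0.41 and 0.37, and 0.79 and 0.76 without their 2 farthest arrays. These cell types' part in the AQP5 values was not tested. Among the genes most like A_73_115344 were GEMIN5 at 0.89 and ACSF3 at 0.89. ACSF3 was also second for the other probe, at 0.86, behind RRP12 at 0.90.

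AQP8, which carries water and also ammonia and hydrogen peroxide, stayed between -3.84 and -2.5 on every array. On A_73_102705 (chr25:24142599-24142658) the levels of cows 1 to 4 were -2.67, -2.89, -3.06 and -2.86 at day 10 and -2.90, -2.77, -3.19 and -2.57 at day 30. They were -3.35, -3.84, -3.59 and -2.80 at day 50 and -2.5, -3.20, -3.79 and -3.46 at day 100. The groups overlapped, with a difference of -0.53 (-1.09 to 0.03, adjusted p = 0.296) at day 50 and -0.37 (-0.93 to 0.19) at day 100 from day 10. The other AQP8 probe, A_73_P058456, was well above background on 3 arrays, in cows 3 and 4 at day 10 and cow 4 at day 50. The design places it 66647 bases away and on the opposite strand, so whether both probes report the same gene is uncertain. The genes most like A_73_102705 were DPEP3, EPHB3 and TH, with r of 0.85 to 0.87.

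AQP3, an aquaglyceroporin of basolateral epithelial membranes, was measured by A_73_112174 (chr8:79337542-79337601) on all 16 arrays. Cows 1 to 4 stood at -2.87, -2.94, -2.33 and -2.04 at day 10 and at -2.49, -3.95, -3.44 and -2.11 at day 30. They stood at -4.11, -3.43, -3.45 and -2.85 at day 50 and at -0.81, -3.79, -2.81 and -2.90 at day 100. The 4 cows were lower at day 50 than at day 10, with a difference of -0.92 (-2.04 to 0.21, adjusted p = 0.367), and at day 100 cow 1 was the highest of all arrays. The day 100 difference was -0.03 (-1.15 to 1.09). A_73_P263201, the other AQP3 probe, spans 399 bases of the genome and was not well above background on any array. The genes most like A_73_112174 were ADCY7, an adenylate cyclase, at 0.84, HEATR6 at 0.82 and DAGLB at 0.81. With the neutrophil list this probe had r = 0.57 (rho 0.73), 0.83 without the list's 2 farthest arrays and 0.36 after time and cow. With the squamous epithelium list r was 0.58, and 0.83 after time and cow. With the stromal fibroblast list it was -0.44, and -0.81 after time and cow. The part of these lists in the AQP3 values was not tested.

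AQP7, the glycerol channel of adipocytes, had 2 probes 23659 bases apart on chromosome 8 beside AQP3, and neither was well above background on any of the 16 arrays. Its levels ran from -9.62 to -6.91 on A_73_P279706 and from -9.54 to -6.87 on A_73_P034176, with 0 of 4 arrays above background at each time, so a difference in AQP7 was not detectable here. Of 6 adipocyte markers 3 were measured, and ADIPOQ, CIDEC and LEP were not.

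AQP9, an aquaglyceroporin known from hepatocytes and from neutrophils and other leukocytes, was dim and patchy. On A_73_113890 (chr10:52644540-52644599) cows 1 and 4 stood at -3.19 and -3.64 at day 10, and cows 2 and 3 at -7.96 and -6.96, not well above background. None of the 4 arrays at day 30 was well above background, with levels from -8.94 to -6.30. At day 50 cows 1 and 3, at -4.64 and -3.98, were above it and cows 2 and 4, at -8.60 and -9.26, were not. At day 100 cow 2 had the highest level of the 16 arrays, -2.98, cow 3 had -4.46, cow 4 had -6.77 and cow 1, at -7.90, was not above background. On this probe, signal above background thus changed from animal to animal within each time except day 30. The day 30 difference from day 10 was -2.43 (-5.72 to 0.85, limma adjusted p = 0.486), an interval that includes no difference, and it was -0.48 with normexp. The second probe, A_73_P080031, had a difference of -1.95 (-4.33 to 0.43, limma adjusted p = 0.441), or -0.12 with normexp, and correlated with the first at r = 0.90 over 16 arrays. A_73_P080031 was well above background on 5 arrays, against 7 for A_73_113890, and at day 100 only in cow 2.

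The neutrophil list, with 6 of 12 markers measured, lay between 0.14 and 4.35 in day 10 biopsies, between -1.87 and 0.00 in those of day 30, between -1.27 and -0.64 in those of day 50, and between -1.77 and 1.85 in those of day 100. Its 2 highest arrays were cows 1 and 4 at day 10, both high in AQP9, and at day 30 both were low. Elsewhere they parted: cow 2 at day 100 had the highest AQP9 level with a list level of -0.98, and cow 1 at day 100 had no AQP9 above background with a list level of 1.85. The correlation of A_73_113890 with the list was r = 0.40 (rho 0.26) and -0.13 without the 2 farthest arrays, so it rested on those arrays. CXCR1, CXCR2, CSF3R and FPR1, receptors that define neutrophils, were among the 6 not measured. The macrophage list gave r = 0.29 and the stromal fibroblast list 0.51, and their part was not tested. The genes most like A_73_113890 were PRNP at 0.83, the pore-forming effector GSDMD at 0.79 and KLF4 at 0.78.

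AQP11, an intracellular aquaporin of the endoplasmic reticulum, had 1 probe, A_73_P039286 (chr29:19333416-19333475), well above background on 10 of 16 arrays. Its levels in cows 1 to 4 were -5.08, -5.42, -6.39 and -6.58 at day 10 and -6.61, -3.66, -5.49 and -6.48 at day 30. They were -6.72, -7.10, -5.83 and -5.85 at day 50 and -5.30, -8.04, -6.86 and -6.39 at day 100. The groups overlapped and the single high value was that of cow 2 at day 30. Differences from day 10 were 0.31 (-1.31 to 1.93), -0.51 (-2.13 to 1.11) and -0.78 (-2.40 to 0.84) at days 30, 50 and 100, with adjusted p from 0.526 to 0.878. EMP2, a tetraspan membrane protein of epithelia, was the most like it at r = 0.85.

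**Figure D3:**
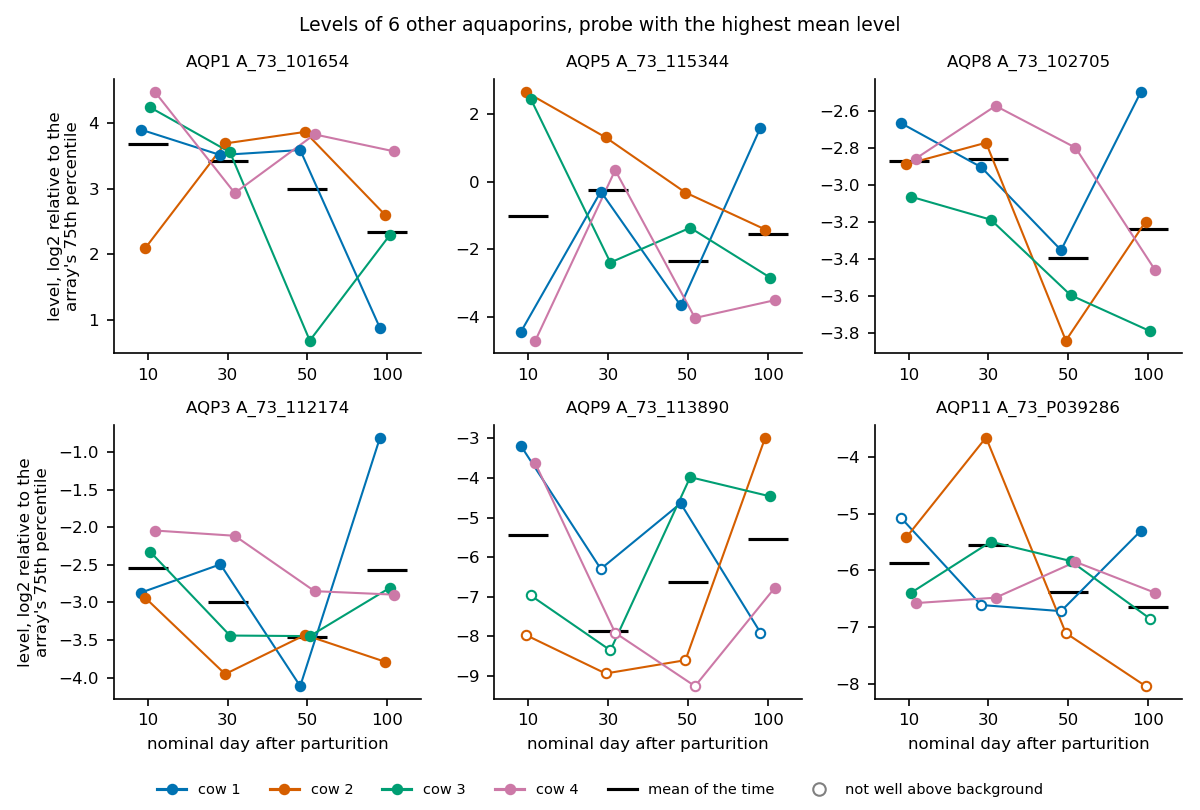
Level of the probe with the highest mean (log2 relative to the percentile 75 of the array) for 6 other aquaporins by nominal day, with a line per cow, black bars at the mean of a time and open points where the spot was not well above background; each panel has its own scale. Cows cross within every gene, AQP5 splits into 2.65 and 2.46 against -4.44 and -4.70 at day 10, and AQP9 has only open points at day 30.

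**Figure D4:**
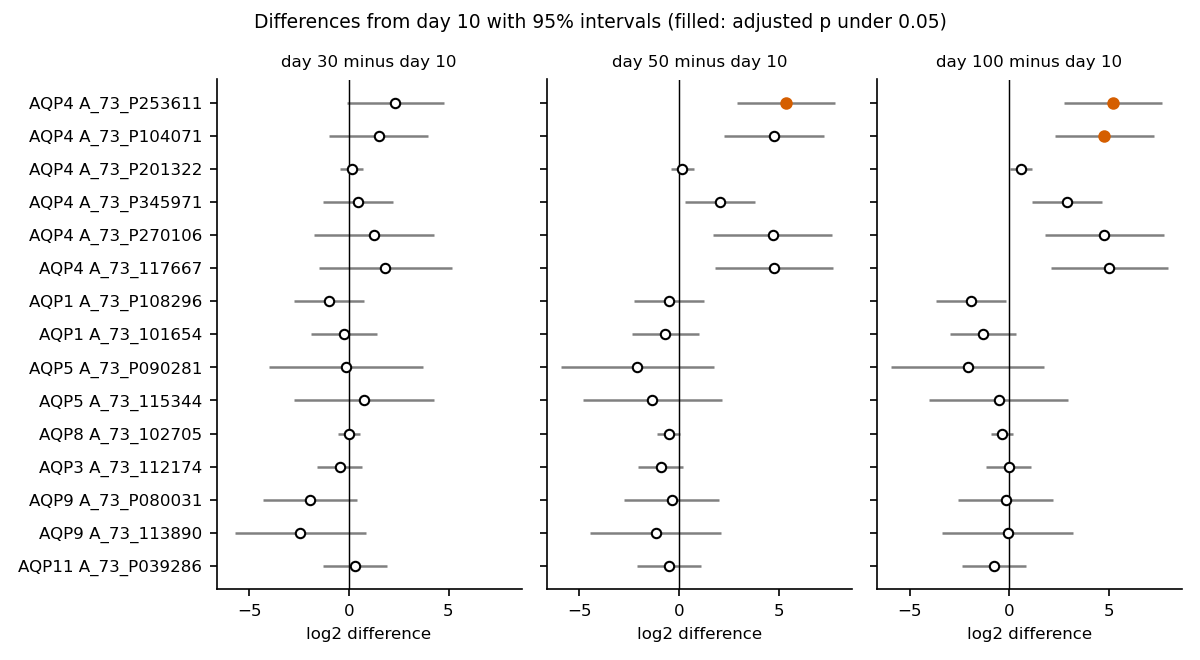
Log2 difference from day 10 of the 15 tested probes at days 30, 50 and 100 (points) with 95% intervals from the limma fit (lines); filled points passed an adjusted p of 0.05. The 3 filled points are AQP4, at 5.37 for day 50 and at 5.21 and 4.76 for day 100, and the 9 probes of other genes lie between -2.43 and 0.75.

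Genes that work with aquaporins were counted in lists of related function. Of 17 measured genes of glycerol and lipid droplet handling, 0 were higher and 1 lower at day 100 than at day 10, with a median difference of -0.31, beside 3.14% of all probes called lower. None of the 17 was called at days 30 and 50. The lower one was MGLL, the lipase that releases glycerol from monoglycerides, with levels of -4.02, -4.68, -4.53 and -4.73 in cows 1 to 4 at day 10. At day 100 these were -6.16, -5.43, -6.86 and -6.48, so the groups did not overlap, and MGLL fell by 1.74 ± 0.37 (SE, adjusted p = 0.0268), with cows 3 and 4 at day 100 not well above background. Of 14 measured genes of epithelial ion transport, which sets the gradients that water follows, 1 was lower and 0 higher at day 50 (median 0.03), beside 1.06% of all probes called lower. None of the 14 was called at days 30 and 100. The one called was SLC4A4, a sodium bicarbonate cotransporter, at least 2.56-fold lower at day 50 (limma adjusted p = 0.0477). No array at day 50 was well above background, and mean levels were -5.50 at day 10 and -7.85 at day 50. Its probe was well above background on only 4 arrays, the fewest allowed for a test. These were cows 2, 3 and 4 at day 10 and cow 2 at day 30. The day 10 mean behind the bound includes cow 1, at -5.07 and not well above background. The size of this fall thus rests on dim spots.

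Of 15 measured partners and regulators of aquaporins, 1 was higher and 0 lower at day 100 (median -0.50), beside 1.47% of all probes called higher. None of the 15 was called at days 30 and 50. It was AKAP7, an anchoring protein for protein kinase A of the kind that takes part in aquaporin trafficking. Its levels were -1.87, -3.37, -3.15 and -2.23 in cows 1 to 4 at day 10 and 1.41, -2.02, -0.09 and -1.13 at day 100. The groups overlapped between cows, each cow was higher at day 100, and AKAP7 rose by 2.20 ± 0.47 (SE, adjusted p = 0.0276). Of the other aquaporins on the array, AQP2 had no call on its probe A_73_P250541, while AQP6 was above background on none of the 16 arrays and MIP on 1. The differences of the other AQP2 probe, A_73_101200, were not examined here. Between the 3 later times limma called no gene of these lists.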

How the data were processed

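Endometrial total RNA of 4 cows at 4 times was hybridised to 16 one-colour Agilent arrays, per the labels' protocols. The deposited scanner files give intensity values, with background removed and spatial trend corrected (Agilent Feature Extraction 11.5.1.1, per the file headers; 10.5.1.1 per the submitters' processing notes), with 0 or 1 marks for spots above background, saturated or nonuniform. The authors also deposited a log2 value table; set against the scanner values (r of 0.99998 to 1, column medians -0.16 to 0.22) it holds these signals after scaling to percentile 75 and subtraction of a probe's median over the arrays. It served as an alternative.

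Nonuniform spots were left out, log2 processed signals were reduced by the array's percentile 75 and spots of a probe were averaged. A probe was tested if 4 or more of its 16 spots were well above background (33174; 10479 were left out). limma 3.58.1 in R 4.3.3 fitted time and cow, two-sided, with Benjamini-Hochberg adjustment over all tested probes and a threshold of 0.05, and the script was tested on simulated data. The number of arrays limits the precision; the median standard error of a difference was 0.36. The 4 samples of an animal are paired, per the labels; the median correlation of their residuals around each time's mean was 0.12, and -0.04 for samples of different cows.

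For a group with no array above background, a fold is a bound against the lowest signal above background on each of its arrays. A list's level is the mean of its genes, each from its own mean, 1 probe per gene; 150 relations of 15 probes with 10 lists were computed. All members were described, the probe with the highest mean level stood for its gene with the others beside it, the 3 genes most like each probe were chosen by Pearson's r among tested genes above background on at least 12 arrays (1 such gene is not reported here), and up to 4 called genes per related list were named. Symbols came from the file or, by accession, from a gene table of assembly ARS-UCD2.0. The members and lists were chosen with earlier results of these data known. Alternatives were other background correction, scaling, filters, weights and designs, and leaving out cows and arrays.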

Additional observations from a re-analysis of the deposited data

Results flagged for a closer look

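Of 59 groups of 4 arrays examined over the 15 tested probes, 4 had a value that stood apart from the other 3 of its group beyond Dixon's limit for 4 values, where chance gives about 1 in 20. Both AQP1 probes were lowest in cow 3 at day 50, at 0.68 on A_73_101654, where the other cows lay between 3.59 and 3.86, and at -6.47 on A_73_P108296, where they lay between -4.87 and -4.60. AQP4 A_73_P201322 was highest in cow 1 at day 100, at 1.36 against 0.06 to 0.07. AQP9 A_73_P080031 was highest in cow 1 at day 30, at -6.61 against -9.06 to -8.74, with none of the 4 arrays well above background.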

How the results depend on the processing

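The members' differences were recomputed under 2640 combinations of a probe, a comparison and an alternative. In 2476 the sign was that of the reported value, in 164 it changed where neither value was called, and no called value reversed. The 5 AQP4 probes with higher levels stayed higher at day 50 and at day 100 in 145 of 145 values each, of which 30 and 51 were called. These probes were grouped because all 4 cows were higher at both times, and the alternatives reuse the same arrays. Their unchanged sign therefore adds little. Against 1 called member probe at day 50, the count was 3 with normexp, 2 with quantile normalization, 5 with array weights (0.219 to 7.90), 4 with the compared times alone and the replicate block, 4 without both cow 1 and cow 2 at day 100 (chosen after seeing the data), and 0 with no replicate block, with only probes above background on all 16 arrays, and with 1 probe per gene. Against 2 at day 100, it was 5 with normexp, 4 with the epithelium and smooth muscle covariate, 4 without both cows at day 100, 1 with no replicate block, and 0 with the compared times alone, the filter on all 16 arrays and 1 probe per gene. For the F test it was 5 with normexp, 4 with array weights and 4 without both cows, against 0. The filter on all 16 arrays and the choice of 1 probe per gene left out the 5 AQP4 probes with higher levels. Their counts of 0 therefore say nothing of those probes. Leaving out a cow or an array gave 0 to 4 at day 50, 0 to 5 at day 100, 0 to 1 for day 100 against 30 and 0 to 5 for F. With no replicate block, 436 of all probes were called at day 50 and 1359 at day 100, against 548 and 1527. Over all probes, array weights, whose fit stopped short of its tolerance, gave 514, 5249 and 2767 calls at days 30, 50 and 100 against 139, 548 and 1527, and 2824 by F against 342. The covariate gave 255, 1344, 2653 and 669, and the compared times alone 4, 889 and 44. Normexp gave 66, 615 and 1982 at days 30, 50 and 100 and 556 by F, and quantile normalization gave 678 at day 50. No replicate block gave 57 at day 30, and leaving out both cows gave 1448 at day 50, 1799 at day 100 and 851 by F. Between the later times, where 0 were called, array weights gave 411 for day 50 against 30, leaving out both cows 10, and for day 100 against 30 normexp gave 16 and leaving out both cows 44. Normexp moved the median of all probes by 0.32 at day 100 and 0.12 at day 30. The causes of these differences were not tested. Dim probes such as those of AQP9, AQP7 and AQP4 at day 10 are limited by signal over background.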
